A study of Mus musculus with 71 samples.

Results

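Chromatin remodelers are ATPases of the Snf2 family that slide, space, evict or exchange nucleosomes. Their transcripts were followed here in mouse embryonic stem cells (mESCs) with and without knockout of 3 linker histone H1 genes. The 10 genes were named by symbol, with no measured value in the rule: Smarca4, Smarca5, Smarca1, Chd1, Chd4, Chd7, Chd8, Ino80, Hells and Atrx. The list was nevertheless chosen with earlier results of these data known. They are 10 of the 24134 genes with a symbol in the RNA-seq tables. Of these 10, 8 have 1 RefSeq accession in the tables and were measured, and 2 (Smarca4 and Smarca1) have several and were not measured as genes. Poly(A) RNA-seq was performed on 2 libraries of wild-type (WT) R1 mESCs and 2 of H1-TKO mESCs, which are R1 cells in which H1c, H1d and H1e were cut by CRISPR/Cas9 with a guide shared by the 3 genes. The H1-TKO cells were derived from picked colonies, so a feature of the clone and an effect of H1 cannot be told apart. For H3K27me3, the mark of Polycomb repression, 1 ChIP-seq peak list per genotype was used. The labels name no other treatment for these libraries.

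The genotype of each RNA-seq library was taken from the name of its own table and column. In the sample labels WT and H1-TKO are exchanged for all 4 of them, and by those labels every direction given here would be reversed. Each of the 4 tables equalled the column of the same genotype and replicate in the per-library source data in 1999 of 1999 rows read, within a relative tolerance of 0.001. Transcripts of the deleted genes did not serve as a check, because poly(A) RNA-seq recovers few H1 reads. H1f2 (H1c) had normalized counts of 11.6 and 56.7 in WT against 18.7 and 7.37 in H1-TKO, H1f3 (H1d) had 3.88 and 41.4 against 1.10 and 0, and H1f4 (H1e) had 5.43 and 19.6 against 0 and 2.11.

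Most remodelers are grouped by their ATPase subunit. SMARCA4 drives the BAF complexes, SMARCA5 and SMARCA1 are the ISWI motors that space nucleosomes, the CHD proteins carry paired chromodomains, and INO80 drives the complex that shares actin-related subunits with the SRCAP and TIP60 complexes. HELLS and ATRX act mainly in heterochromatin, HELLS in DNA methylation of repeats and ATRX in deposition of the histone variant H3.3. In mESCs several of them are known for keeping chromatin open at pluripotency genes, and linker histone H1 binds the same linker DNA on which ISWI and CHD motors act.

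The libraries held 8292007 to 10538507 reads in WT and 6951619 to 7346122 in H1-TKO. The growth text of the labels for these libraries describes HeLa culture, whereas the cell type is given as mESC. Of 12 mESC markers, 10 accessions were tested, among them Sox2 and Dppa5a at 3958 to 14435 normalized counts in every library. In H1-TKO 4 of the 10 were higher and 2 lower. Of the 2 lower, Sall4 belongs to a gene with 3 accessions, which does not measure the gene. Nanog, also with several accessions, was listed at 0. The summed level of these markers was 39795 and 50500 in WT and 60327 and 60632 in H1-TKO. The summed level of 8 fibroblast markers overlapped between genotypes (571 and 479 against 512 and 576), but its members moved in opposite directions. Of 4 tested, Acta2 (217 and 180 against 2.2 and 0) and Col1a1 (196 and 148 against 34.2 and 53.7) were lower, Thy1 (109 and 125 against 450 and 511) was higher, and Dcn and Postn were listed at 0. The sum of 8 neural and mesoderm markers was 3885 and 2381 in WT against 862 and 928 in H1-TKO, with 2 of 6 accessions lower. These were Nes (2920 and 849 against 204 and 224) and Tubb3 (915 and 1399 against 600 and 634), which make up most of the sum, whereas T and Mixl1, at counts near the filter, had both H1-TKO libraries higher and did not pass. The sum of 6 primitive endoderm markers was 1343 and 1716 against 920 and 832, nearly all of it from Lama1 (1272 and 1665 against 874 and 785), the 1 of 4 accessions called lower, and Sox17 was listed at 0. The part of these shifts in the values of the remodelers was not tested. In WT replicate 2, 1 accession without a symbol took 11.8% of the reads, against 1.98% to 2.08% in the other 3 libraries. Between replicates, 13.3% of accessions lay over 2-fold apart in WT and 6.52% in H1-TKO.

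Smarca4 and Smarca1 could not be read from these tables. Smarca4, at 21420613 to 21508674 on the plus strand of chromosome 9 (NCBIM37), is split over 3 accessions, of which 2 were at 0 in every library and the other had 3 reads in WT replicate 2 and 0 elsewhere. Smarca1, at 45162547 to 45246151 on the minus strand of chromosome X, is split over 2 accessions, of which 1 was at 0 throughout and the other had 2 and 4 reads in WT and 0 and 0 in H1-TKO. Low values of this kind are common among genes with several accessions: 48.4% of 5158 such genes had a mean under 1, against 30.7% of 18976 genes with 1 accession. A 0 at such an accession gives no level for the gene. A count of 0 allows up to 3 reads in a library, by counting error alone.

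The 8 measured genes ranged over more than an order of magnitude in normalized count per kb of transcript. Chd4, the NuRD motor, stood highest with 2208 and 1820 per kb in WT and 1499 and 1469 per kb in H1-TKO. Hells followed at 860 to 1008 per kb over the 4 libraries and Atrx at 552 to 719 per kb. Chd8 and Chd1 came next, and their WT libraries overlapped (448 and 522 per kb for Chd8, 462 and 338 per kb for Chd1). In H1-TKO the order of that pair was exchanged, with Chd1 at 352 and 362 per kb and Chd8 at 308 and 287 per kb. Ino80 (228 and 314 per kb) and Smarca5 (242 and 234 per kb) overlapped in WT and were apart in H1-TKO, at 118 and 134 per kb for Ino80 and 185 and 196 per kb for Smarca5. Chd7 was lowest in both genotypes, at 205 and 147 per kb in WT and 64.2 and 62.5 per kb in H1-TKO. Among the 9387 genes with 1 accession, a mean normalized count of at least 10 and an annotated length, these mean levels ran from the 53.6th percentile for Chd7 to the 97.3rd percentile for Chd4.

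**Figure D1:**
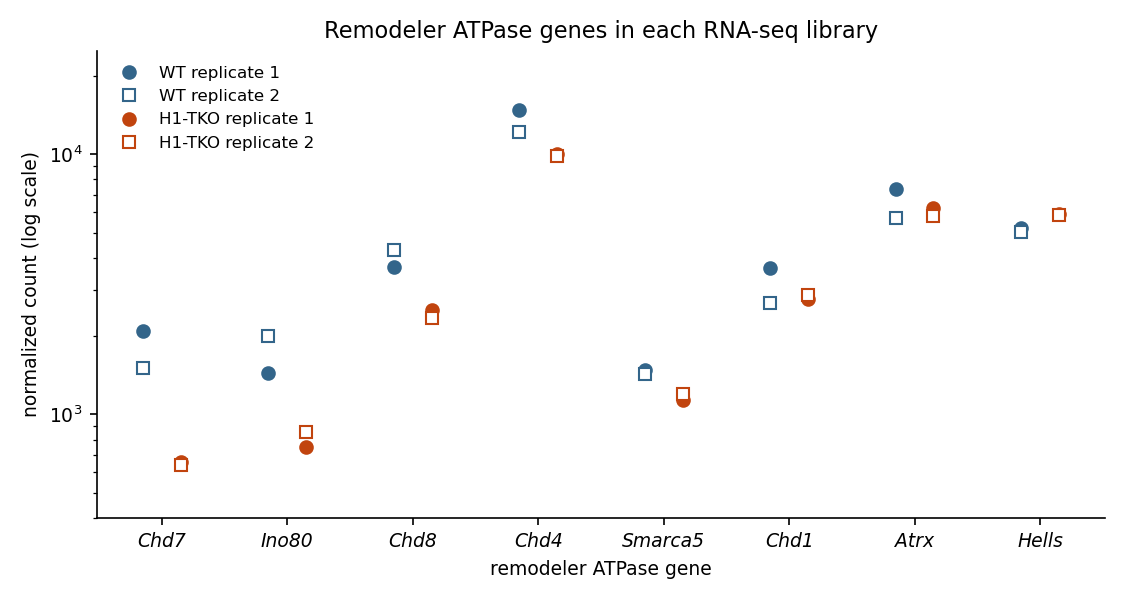
Normalized count (log scale) of the 8 measured remodeler ATPase genes in each RNA-seq library, with WT in blue and H1-TKO in orange, replicate 1 as filled circles and replicate 2 as open squares. Chd7, Ino80 and Chd8 show the widest gaps between genotypes, the libraries of Chd1 and Atrx overlap, and the sample labels would exchange the colours.

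To ask whether remodeler transcripts differed in cells lacking H1c/d/e, normalized counts were compared on the log2(normalized count + 1) scale with limma over 11113 accessions. Of the 8 genes, 3 fell in H1-TKO (Chd7, Ino80 and Chd8) and 0 rose at an adjusted p under 0.05, while 5 did not pass. Without the filter on low values 0 of the 8 were called, and Ino80 and Chd8 also lost their calls when an H1-TKO library was left out. Over all accessions tested, 10.7% were called lower and 9.84% higher. At an unadjusted p under 0.05, 5 of the 8 were lower and 0 higher, against 19.8% and 17.8% of all accessions. On recovered reads, edgeR and DESeq2 each called 3 lower and 0 higher, against 9.95% and 9.51% of all accessions in edgeR and 11.6% and 10.2% in DESeq2. Both H1-TKO libraries lay below both WT libraries for 5 of the 8 genes, against 34.2% of all accessions, and above them for 1, against 32.2%. The median log2 fold change of the 8 genes was -0.38, against -0.03 over all accessions. In these bulk libraries fewer cells of a type and less RNA per cell cannot be told apart.

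Chd7, a CHD remodeler bound at enhancers in mESCs and mutated in CHARGE syndrome, showed the greatest difference of the 8. The gene (NM_001277149) lies at 8617553 to 8794806 on the plus strand of chromosome 4. It had 2093 and 1503 normalized counts in WT against 656 and 638 in H1-TKO. The H1-TKO libraries nearly coincided and were well below both WT libraries, which themselves differed 1.39-fold. From a mean of 1798 ± 417 to one of 647 ± 12.2 (SD, n = 2 each), Chd7 was 64.0% lower in H1-TKO. The log2 fold change was -1.45 ± 0.18 (SE) with a limma adjusted p of 0.00446, or 0.159 without the filter on low values.

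Chd8, a CHD remodeler found at active promoters and a high-confidence autism gene, also fell. The gene (NM_201637) lies at 52817826 to 52857466 on the minus strand of chromosome 14. Its normalized counts were 3672 and 4279 in WT against 2519 and 2351 in H1-TKO. Here WT replicate 2 was the higher WT library, unlike in Chd7, and the genotypes did not overlap. The mean was 38.8% lower in H1-TKO (log2 fold change -0.70 ± 0.13 SE, limma adjusted p = 0.0124). The adjusted p was 0.203 without the filter on low values and 0.107 and 0.166 without H1-TKO replicate 1 or 2. A lincRNA annotated on the opposite strand, Gm16682, overlaps exons of Chd8, and the counting is not stated to use strand.

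Ino80, the motor of the INO80 complex, which moves nucleosomes and acts on H2A.Z-containing ones, fell to less than its WT range. The gene (NM_026574) lies at 119198778 to 119303423 on the minus strand of chromosome 2. It had 1448 and 1998 normalized counts in WT against 751 and 854 in H1-TKO. Both WT libraries were above both H1-TKO libraries although they differed 1.38-fold from each other. The mean was 53.4% lower in H1-TKO (log2 fold change -1.09 ± 0.18 SE, limma adjusted p = 0.0103). The adjusted p was 0.230 without the filter on low values and 0.0546 without H1-TKO replicate 1.

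Chd4, the catalytic subunit of NuRD, missed the threshold by a small margin. The gene (NM_145979) lies at 125045999 to 125080609 on the plus strand of chromosome 6. It had 14785 and 12186 normalized counts in WT against 10038 and 9837 in H1-TKO, so the genotypes did not overlap. The log2 fold change was -0.43, with a 95% interval of -0.73 to -0.14 and a limma adjusted p of 0.0500056. With a pseudocount of 0.5 in place of 1 the adjusted p was 0.0498, and it was 0.0607 in edgeR and 0.0558 in DESeq2 on recovered reads. Under quantile normalization the log2 fold change was -0.22 (limma adjusted p = 0.136). The limma adjusted p was 0.0308 with a replicate block and 0.608 without the filter on low values.

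Chd1, which binds H3K4me3 and is known for keeping mESC chromatin open, gave no call. The gene (NM_007690) lies at 15841931 to 15909574 on the plus strand of chromosome 17. Its normalized counts were 3654 and 2676 in WT against 2788 and 2864 in H1-TKO. WT replicate 1 was highest and WT replicate 2 lowest, with both H1-TKO libraries between them. The log2 fold change was -0.15 with a 95% interval of -0.53 to 0.24 (limma adjusted p = 0.547), which leaves room for differences in either direction. Under quantile normalization it was -0.04.

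Smarca5 (SNF2H), the ISWI motor that spaces nucleosomes in several complexes, had 1476 and 1433 normalized counts in WT against 1134 and 1199 in H1-TKO. The gene (NM_053124) lies at 83222406 to 83263396 on the minus strand of chromosome 8. The H1-TKO libraries were below both WT libraries, but the difference did not pass (log2 fold change -0.32, 95% interval -0.62 to -0.02, limma adjusted p = 0.116). Accessions of chromosome 8 were lower as a whole, with a median log2 fold change of -0.24 over 598 accessions, and relative to that median Smarca5 was at -0.08. The level of Smarca5 is uncertain as well. Of the 32-base windows of its transcript, 45.0% occur at more than 1 site in the NCBIM37 genome, against 0% to 2.00% for the 7 other measured genes, and only uniquely mapped reads were counted. The share of the Smarca5 transcript that the longer read pairs cover uniquely was not measured. Its annotated copy Smarca5-ps, at 145054107 to 145057323 on the plus strand of chromosome 4, had 568 and 519 normalized counts in WT against 267 and 302 in H1-TKO (log2 fold change -0.93 ± 0.18 SE, limma adjusted p = 0.0140). Smarca5-ps was named after its values were seen, and reads of the 2 copies may be split between them.

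Hells (LSH), required for DNA methylation of repeats, was the only one of the 8 genes with both H1-TKO libraries above both WT libraries. The gene (NM_008234) lies at 39005405 to 39045541 on the plus strand of chromosome 19. It had 5227 and 5046 normalized counts in WT against 5917 and 5823 in H1-TKO. Replicates differed by at most 1.04-fold, and the log2 fold change was 0.19 with a 95% interval of -0.06 to 0.44 (limma adjusted p = 0.230). Under quantile normalization the log2 fold change was 0.34 with a limma adjusted p of 0.0372.

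Atrx, which deposits H3.3 at repeats together with DAXX, had 7380 and 5665 normalized counts in WT against 6215 and 5779 in H1-TKO. The gene (NM_009530) lies at 102992954 to 103124736 on the minus strand of chromosome X. The WT libraries enclosed both H1-TKO libraries. The log2 fold change was -0.11 with a 95% interval of -0.46 to 0.24 (limma adjusted p = 0.620). Under quantile normalization it was 0.03.

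**Figure D2:**
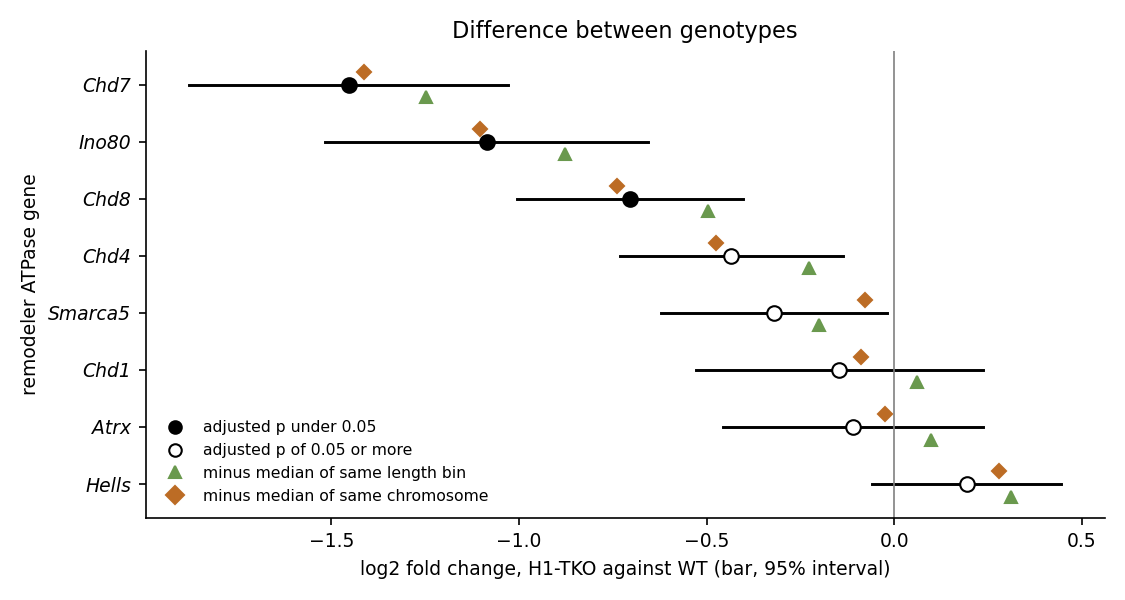
Log2 fold change of the 8 genes between H1-TKO and WT (circles, filled at an adjusted p under 0.05) with 95% limma intervals as bars, and the same value minus the median of accessions of like transcript length (triangles) or of the same chromosome (diamonds). Chd7, Ino80 and Chd8 are filled, and Smarca5 lies at -0.08 once the median of chromosome 8 is taken off. Under the sample labels all signs would be reversed.

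The remodeler transcripts are long, at 5.9 to 10.3 kb against a median of 2.8 kb over 9387 accessions with a length, and length moved with the difference between genotypes. With the accessions cut into 10 equal bins by length, in the longest bin (6.16 to 22.49 kb) the median log2 fold change was -0.21, and in the bin below (4.63 to 6.15 kb) it was -0.12, while the other 8 bins had medians between -0.05 and 0.06. Of accessions in the longest bin, 23.2% were called lower, against 10.7% of all. Chd1, Chd4, Chd7, Chd8, Ino80 and Atrx are in the longest bin, and Smarca5 and Hells in the bin below. With the median of the same bin taken off, an alternative added after the data were seen, Chd7 was at -1.25, Ino80 at -0.88, Chd8 at -0.50, Chd4 at -0.23 and Smarca5 at -0.20. Chd1 and Atrx moved to 0.06 and 0.10, and Hells to 0.31. The part of transcript length in the falls of Chd7, Ino80 and Chd8 was not tested.

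**Figure D3:**
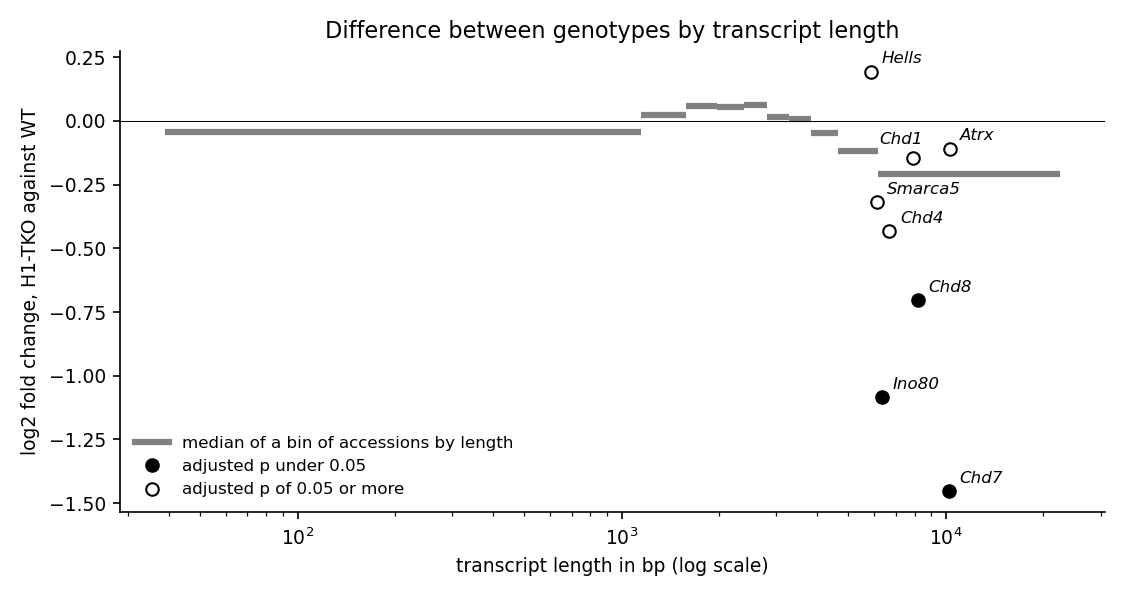
Log2 fold change between H1-TKO and WT against transcript length in bp (log scale). Grey bars give the median of each of 10 bins of accessions by length, and circles give the 8 remodeler genes, filled at an adjusted p under 0.05. All 8 genes sit among the 2 longest bins, whose medians are -0.12 and -0.21, and the sample labels would reverse the signs.

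The calls also turned on single libraries. Chd7 passed with any 1 of the 4 libraries left out, at log2 fold changes of -1.69 to -1.22. Ino80 ranged from -1.32 to -0.85 and Chd8 from -0.81 to -0.59, and each lost its call in a fit without an H1-TKO library. Without WT replicate 2, the library with the dominant accession, 7 of the 8 genes were called lower and Hells was called higher (log2 fold change 0.17), in a fit that called 23.1% of all accessions lower and 21.5% higher. Without WT replicate 1, where 25.1% of all accessions were called lower and 24.1% higher, 5 genes were called lower and Hells was again called higher (log2 fold change 0.22), whereas Chd1 and Atrx turned to log2 fold changes of 0.08 and 0.08. The spread between the WT libraries does not enter the fits that leave out a WT library, and in each of these fits the lone library is assumed to vary like the pair of the other genotype.

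**Figure D4:**
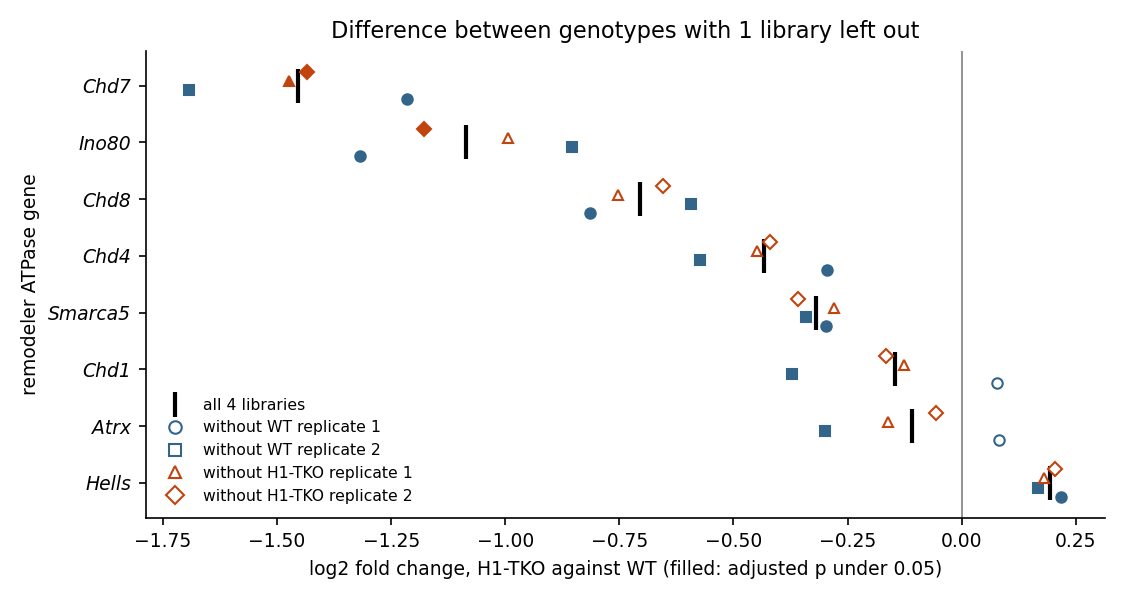
Log2 fold change of the 8 genes between H1-TKO and WT with all 4 libraries (black bars) and with each library left out in turn (symbols, filled at an adjusted p under 0.05). Chd7 stays filled in all 4 fits, and Chd1 and Atrx lie above 0 without WT replicate 1. The sample labels would reverse the signs.

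The surroundings of these ATPases were read from 6 lists of 97 related genes, of which 78 accessions could be tested. Of these, 16 were lower in H1-TKO and 4 higher, against 10.7% and 9.84% of all accessions. Their median log2 fold change was -0.22, against -0.03 over all. Of the 78, 14 belong to genes with several accessions, which do not measure the gene. The 20 calls are all among the other 64, whose median was -0.20. Without the filter on low values 0 of the 78 were called, and the counts also changed with 1 library left out.

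The 19 accessions tested of 22 other Snf2-family ATPases had a median of -0.45. Among them 5 fell and 1 rose, against 10.7% and 9.84% of all accessions. All 6 are among the 11 accessions that are alone for their gene, whose median was -0.45. Chd3, a second Mi-2 motor of NuRD, had 666 and 530 normalized counts in WT against 242 and 204 in H1-TKO (log2 fold change -1.41, limma adjusted p = 0.00638). Chd9, a close relative of Chd7 and Chd8, had 5424 and 3223 against 2034 and 2132 (-1.01, adjusted p = 0.0235). Rad54l2, an ATPase that binds the androgen receptor, had 1748 and 1702 against 1006 and 922 (-0.84, adjusted p = 0.00810), and Btaf1, which removes TATA-binding protein from DNA, had 2370 and 2451 against 1540 and 1372 (-0.73, adjusted p = 0.0111). Chd3, Chd9, Rad54l2 and Btaf1 are, like Chd7 and Chd8, in the longest bin by transcript length, Chd3 is on chromosome 11, whose median log2 fold change was -0.37, and Chd9 on chromosome 8, whose median was -0.24. Srcap and Smarcal1, named here after their values were seen, complete the 6. Srcap, the motor of the SRCAP complex, had 4637 and 5925 against 3300 and 3206 (-0.69, limma adjusted p = 0.0181). Smarcal1, an annealing helicase, had 576 and 611 against 845 and 922 (0.57, limma adjusted p = 0.0351), and it lies on chromosome 1, whose median log2 fold change was 0.50.

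The BAF complexes, the setting of the unmeasured Smarca4, had 5 of 20 accessions lower and 0 higher in limma. Over all accessions 10.7% were lower and 9.84% higher. At an unadjusted limma p under 0.05, 1 was higher, against 17.8% of all accessions. In edgeR and DESeq2 0 were higher, against 9.51% and 10.2% of all. Arid1a, the DNA-binding subunit of canonical BAF, had 6975 and 6142 normalized counts in WT against 2497 and 2433 in H1-TKO (log2 fold change -1.41, limma adjusted p = 0.00150). Its paralog Arid1b had 615 and 435 against 128 and 137 (-1.96, adjusted p = 0.00403), and Arid2, of the PBAF form, had 2030 and 1582 against 1150 and 1102 (-0.67, adjusted p = 0.0263). Smarce1, the HMG-box subunit, had 429 and 543 against 144 and 205 (-1.48, adjusted p = 0.00948), but 39.5% of its windows occur at more than 1 site and it lies on chromosome 11. Arid1a, Arid1b and Arid2 are in the longest bin by transcript length, where 23.2% of accessions were called lower. The remaining one of the 5, Smarcd1, also named after its values were seen, had 2244 and 2520 against 1603 and 1512 (-0.61, limma adjusted p = 0.0187).

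Of 11 accessions of ISWI partners, the proteins that form complexes with SMARCA5 and SMARCA1, 1 fell and 2 rose. Over all accessions tested, 10.7% fell and 9.84% rose. Bptf, the large subunit of NURF, had 6574 and 7849 normalized counts in WT against 4453 and 4109 in H1-TKO (log2 fold change -0.75, limma adjusted p = 0.0108), and it lies on chromosome 11 and in the longest bin by transcript length. Baz2b, a bromodomain protein with a transcript in the same bin, had 547 and 485 against 886 and 1009 (0.87, adjusted p = 0.0121). Rbbp7, a histone chaperone that NURF shares with NuRD and PRC2, had 4971 and 3137 against 7591 and 7409 (0.93, adjusted p = 0.0219), with 26.7% of its windows at more than 1 site.

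Of 8 accessions listed for NuRD, the complex of Chd4, 4 were lower and 0 higher in limma, against 10.7% and 9.84% of all. At an unadjusted limma p under 0.05, 1 was higher, against 17.8% of all accessions. In edgeR and DESeq2 0 were higher, against 9.51% and 10.2% of all. Rbbp4 and Rbbp7, which are also NuRD subunits, were counted with the ISWI partners, so the higher Rbbp7 is not in this count. Mta1, which recruits the histone deacetylases, had 1917 and 1605 normalized counts in WT against 1104 and 1068 in H1-TKO (log2 fold change -0.69, limma adjusted p = 0.0177), and Gatad2b, which links the deacetylase and remodeling modules, had 759 and 841 against 511 and 457 (-0.72, adjusted p = 0.0215). Hdac1, a histone deacetylase, had 413 and 368 against 73.8 and 76.9 (-2.35, adjusted p = 0.00232), and Cdk2ap1, a small subunit, had 801 and 784 against 461 and 447 (-0.80, adjusted p = 0.0132). For Hdac1 and Cdk2ap1, 72.9% and 91.1% of the 32-base windows occur at more than 1 site, and their levels are uncertain. The share of each transcript that the longer read pairs cover uniquely was not measured.

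Of 17 accessions of INO80, SRCAP and TIP60 subunits, the complexes around Ino80, 1 fell and 1 rose, with a median log2 fold change of -0.01, or 0.02 over the 15 that are alone for their gene. Among all accessions tested, 10.7% were called lower and 9.84% higher. Srcap, which fell, was counted with the Snf2-family ATPases and is not among the 17. A difference between Ino80 and these subunits was not tested. Trrap, the scaffold of TIP60, had 3317 and 4280 normalized counts in WT against 2351 and 2386 in H1-TKO (log2 fold change -0.67, limma adjusted p = 0.0220) and is in the longest bin by transcript length. Actr6, of SRCAP, had 272 and 215 against 405 and 432 (0.79, adjusted p = 0.0334). Of 8 HELLS and ATRX partners only 3 accessions were tested, and 0 passed in limma, edgeR or DESeq2 or had an unadjusted p under 0.05, with log2 fold changes of -0.27 to -0.09.

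**Figure D5:**
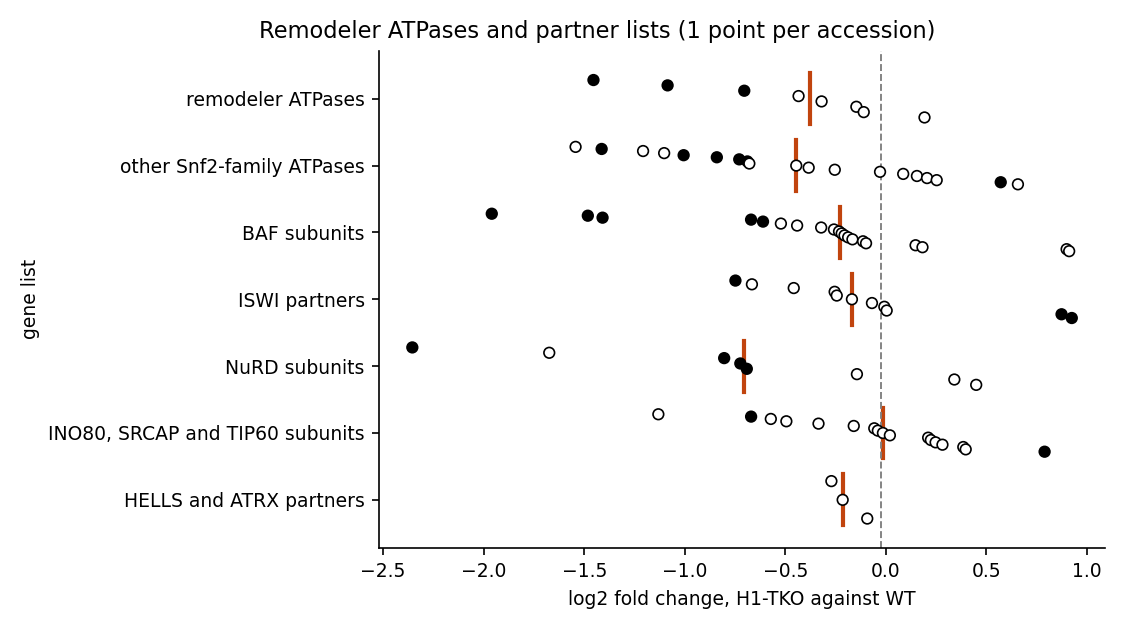
Log2 fold change between H1-TKO and WT of each accession tested, for the 8 measured remodeler ATPases and 6 related lists (filled points at an adjusted p under 0.05), with the median of each list as an orange bar and that of all accessions as a dashed line. The medians run from -0.71 for NuRD subunits to -0.01 for INO80, SRCAP and TIP60 subunits, and the sample labels would reverse the signs.

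H3K27me3 was not listed at any of the 10 genes. In the WT list and in the H1-TKO list, 0 peaks lay within 2 kb of an annotated start of any of them, and 0 within 10 kb. Among 9385 genes, 14.4% had a peak within 2 kb in WT and 13.4% in H1-TKO. With 1 list per genotype there is no replicate check, and a region below the peak threshold is not listed.

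To show the promoters that lacked a listed peak, the 250 bases before the start are given for Chd8 and Ino80, which fell, and for Hells, whose H1-TKO libraries were both higher. The sequences are from RefSeq (GRCm38.p6), read 5′ to 3′ on the gene's strand, and each was found at exactly 1 site in NCBIM37. Capitals mark the CCAAT box, the GC box (GGGCGG) and the E2F-type element (TTCCCGC), on either strand.
Chd8: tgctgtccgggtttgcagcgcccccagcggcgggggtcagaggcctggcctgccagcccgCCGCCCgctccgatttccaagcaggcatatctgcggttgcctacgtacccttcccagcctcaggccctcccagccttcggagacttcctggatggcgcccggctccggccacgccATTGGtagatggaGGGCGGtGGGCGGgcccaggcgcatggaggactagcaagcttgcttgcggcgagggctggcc
Ino80: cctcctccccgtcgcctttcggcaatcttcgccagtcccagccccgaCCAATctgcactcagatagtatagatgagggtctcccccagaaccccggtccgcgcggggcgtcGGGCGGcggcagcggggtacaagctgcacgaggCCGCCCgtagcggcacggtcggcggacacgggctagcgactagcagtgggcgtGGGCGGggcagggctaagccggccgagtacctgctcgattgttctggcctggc
Hells: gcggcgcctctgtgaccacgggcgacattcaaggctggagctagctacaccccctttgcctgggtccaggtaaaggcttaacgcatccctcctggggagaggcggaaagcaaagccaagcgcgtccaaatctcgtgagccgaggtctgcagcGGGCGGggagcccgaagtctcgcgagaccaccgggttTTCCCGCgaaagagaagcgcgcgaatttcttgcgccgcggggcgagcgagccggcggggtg
The Chd8 window is at chr14:52877436-52877685, minus strand, 20.0 kb before the start of the GENCODE gene, the Ino80 window at chr2:119303424-119303673, minus strand, and the Hells window at chr19:39005230-39005479, plus strand. The nearest listed H3K27me3 peak was 54.7 kb from the Chd8 window in WT and 55.0 kb in H1-TKO, 125.8 and 156.4 kb from that of Ino80, and 584.1 and 579.2 kb from that of Hells. All 3 windows are rich in G and C, at 70.0%, 69.2% and 65.6% against a median of 52.4% over 32851 promoters.

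Of the 10 genes, 8 had a window in the RefSeq table, Chd1 and Chd7 had none, and Chd4 had 2, which makes 9 windows. Their G and C content ran from 48.4% for Atrx to 70.8% for Smarca4. The 2 windows of Chd4 overlap each other. The GC box was found in 8 of the 9, or in 7 of the 8 genes, and in 32.7% of all promoters. The Atrx window, the lowest in G and C, lacked it. The part of G and C content in these matches was not tested. CCAAT was found in 5 of the 9 (those of Smarca1, Chd8, Ino80 and Atrx and 1 of the 2 of Chd4) and in 33.8% of all. The E2F-type element was found in the Hells window only, and in 3.82% of all. TGCGCA, a part of the NRF1 motif, was found in the windows of Smarca4 and Smarca5 and in 6.43% of all, whereas CACGTG and CCGGAAG, in 6.02% and 6.91% of all, were found in 0 of the 9. These are matches of letters on either strand and not sites of binding.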

How the data were processed

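Poly(A) RNA-seq reads were mapped by the authors with Subread to the mm9 annotation, unique reads were counted per RefSeq accession with featureCounts, and the counts were divided by a DESeq2 size factor; the deposited signal is the resulting normalized count. Dividing by the worth of 1 read gave whole reads for 100% of the values, within a relative tolerance of 0.001. H3K27me3 peaks were called by the authors with MACS on mm9, and the deposited score of a peak (10 times -log10 of its p) was at least 50.0. Symbols came from RefSeq (GRCm38.p6, names only) and places from GENCODE M1 (NCBIM37). Of 34010 accessions, 33646 had a symbol.

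The log2(normalized count + 1) of accessions with a mean of at least 10 was tested two-sided with limma 3.58.1 (trend, Benjamini-Hochberg, R 4.3.3), without a replicate block. The study describes the 2 RNA-seq libraries of a genotype as biologically independent. Alternatives were edgeR 4.0.16 and DESeq2 1.42.0 on recovered reads, other pseudocounts and filters, quantile normalization, a replicate block and leaving out each library. The fit was tested on simulated data. Named from the lists were genes with an adjusted p under 0.05 and no overlap, at most 4 per list. Members and lists were chosen with earlier results of these data known. ChOR-seq and the remaining experiments were not analysed here.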

Additional observations from a re-analysis of the deposited data

How the results depend on the processing

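Directions here follow the table names and would be reversed under the sample labels. With all accessions, the counts higher and lower were 1094 and 1188. They were 75 and 1 without the filter on low values, where limma ran over 34010 accessions, of which 11113 pass that filter. That fit called 0 of the 8 remodeler genes and 0 of the partner accessions in either direction. At an unadjusted limma p under 0.05 it had 4 of the 8 and 28 of the partner accessions, against 4588 of the 34010. Chd7, Ino80 and Chd8 then had adjusted p-values of 0.159, 0.230 and 0.203. With 1 library left out, they ranged from 199 to 2682 higher and from 386 to 2786 lower. For the remodeler genes, the counts ran from 0 to 1 higher and from 1 to 7 lower with 1 library left out, and quantile normalization gave 1 higher (Hells). For the partner lists, they ran from 0 to 11 higher and from 4 to 33 lower with 1 library left out. Replicate numbers did not pair the libraries (correlation of their deviations 0.01), and a replicate block gave 1521 higher and 1778 lower, with 4 of the remodeler genes lower; Chd4 then had a limma adjusted p of 0.0308.

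Apart from the fit without a filter, Chd7, Ino80 and Chd8 passed in edgeR, DESeq2, both other pseudocounts, the filter at a mean of 100, quantile normalization and the replicate block. With 1 library left out, the log2 fold change of Chd1 ranged from -0.371 without WT replicate 2 to 0.0785 without WT replicate 1, and that of Atrx from -0.300 to 0.0811 without the same libraries. Atrx was at 0.0266 under quantile normalization. The cause of these changes was not tested. H3K27me3 peak counts at the genes were 0 under a score of at least 100 and within 10 kb.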
